A study of Mus musculus with 9 samples.

Results

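The control arm of an in utero electroporation experiment in the embryonic mouse cortex is described here at baseline, as levels and ranks of genes. It was taken as the 3 deposited columns of the non-targeting construct sh-NT, numbered 1, 2 and 4 in the table and called libraries 1, 2 and 4, out of 9 libraries in the series. The other 6 libraries carry constructs against the glypicans Gpc4 and Gpc2, and no group is compared with another. Wild-type mouse embryos received by electroporation, at E14.5 (embryonic day), a plasmid for mCherry and a scrambled microRNA-type short hairpin (shmiRNA). The mCherry-positive cells were isolated by flow cytometry at E16.5, 48 h later, and their RNA was sequenced in bulk. The labels give the tissue as forebrain, the genotype as WT and the cells as cortical neurons together with progenitors, and they do not say whether the 3 libraries came from separate embryos or litters or from pooled animals. The spread between libraries may therefore be technical. The sort is meant to select cells that took up plasmid at a ventricular surface and their progeny, rather than the whole cortex. The libraries also held RNA of microglial and globin genes, described below, so they are not made of that cohort alone.

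In the developing cortex, radial glia line the ventricle and divide, carrying factors such as Pax6 and the fatty-acid binding protein Fabp7. Many of their daughters become intermediate progenitors, which are marked by the T-box factor Eomes (Tbr2) and divide again to give neurons. Newborn excitatory neurons switch on NeuroD-type bHLH factors, among them Neurod6, and migrate outwards, the later-born ones past the deep layers to form the upper layers. GABAergic neurons of the cortex arise elsewhere, in the ventral forebrain, and microglia come from outside the nervous system.

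The 3 libraries held 62004280, 58950935 and 59478504 reads assigned to genes. Levels are given as CPM, the usual unit of read counts relative to library size, after scaling by the trimmed mean of M values (TMM) and, where genes are set against each other, as CPM per kilobase of exon (CPM per kb). Of 78275 gene identifiers, 18746 (23.9%) had a mean of at least 1 CPM, 11421 of at least 10 CPM, 2720 of at least 100 CPM and 38 of at least 1000 CPM. The reads were spread widely: 1633 genes held 50% of them and the top 10 genes held 2.42%. Across the 18746 genes at 1 CPM or more, Pearson's r of log2 CPM was 0.996 between libraries 1 and 2, 0.993 between libraries 1 and 4 and 0.993 between libraries 2 and 4. Genes are not independent replicates, and these values describe the libraries only. No pair of libraries agreed within counting noise, since the chi-square statistic per degree of freedom was 7.65, 20.8 and 22.2 for the same pairs, and each was counted as a sample. Among the 16256 genes at 1 CPM or more with a known exon length, which are the genes ranked here, the median level was 6.05 CPM per kb.

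Among protein-coding genes, tubulin and actin genes were the highest per length. Tuba1a, the alpha-tubulin of growing neurons, stood at 984 ± 50.5 CPM per kb (SD, n = 3), and Actb, cytoplasmic beta-actin, at 902 ± 61.9 CPM per kb. The other protein-coding genes of the leading 15 were Ftl1, Gm49450, Marcksl1, H3f3b, Tmsb4x, Sox11, H1f0, Calm2, Tubb5, Nnat, Gm20538, Ptma and Tubb3, at 547 to 873 CPM per kb. Gm49450 and Gm20538 lie wholly within exons of other annotated genes, so their reads cannot be assigned to them with certainty. Sox11, a SOX factor of immature neurons, took more reads than any other gene, at 4905, 4778 and 6737 CPM in libraries 1, 2 and 4. Library 4 stood above libraries 1 and 2 for Sox11, which did not differ much from each other.

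Neurod6, Fabp7, Eomes and Pax6, the markers of excitatory neurons, radial glia and intermediate progenitors, were all well above the floor of detection, so the labelled cell types were represented in each library. Neurod6 (chromosome 6, 55677822 to 55681263, minus strand, GRCm38) stood at 1124, 1038 and 1250 CPM, a mean of 1137 ± 107 (SD, n = 3). Fabp7 (chromosome 10, 57784881 to 57788450, plus strand) stood at 645, 676 and 638 CPM, a mean of 653 ± 20.2. Per length, Neurod6 at 529 ± 49.6 CPM per kb and Fabp7 at 522 ± 16.1 CPM per kb did not differ beyond their spread and ranked 24 and 26 of 16256 genes. A neuronal transcription factor and a radial glial protein were thus side by side near the top of the ranking.

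Eomes (chromosome 9, 118478212 to 118486132, plus strand) stood at 81.3, 80.2 and 90.6 CPM, a mean of 84.0 ± 5.76 (SD, n = 3), or 20.2 ± 1.39 CPM per kb. Pax6 (chromosome 2, 105668900 to 105697364, plus strand) stood at 168, 167 and 139 CPM, a mean of 158 ± 16.6, or 13.5 ± 1.42 CPM per kb. Both regulators lay well below Neurod6 and Fabp7 but above the median gene, at the 78.8 and 69.8 percentiles of CPM per kb. The place of Pax6 depends on the length assigned to it: it was at the 83.9 percentile with the length of its longest transcript and at the 91.2 percentile without division by length. Eomes and Neurod6 were highest in library 4, whereas Pax6 and Fabp7 were lowest there.

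**Figure D1:**
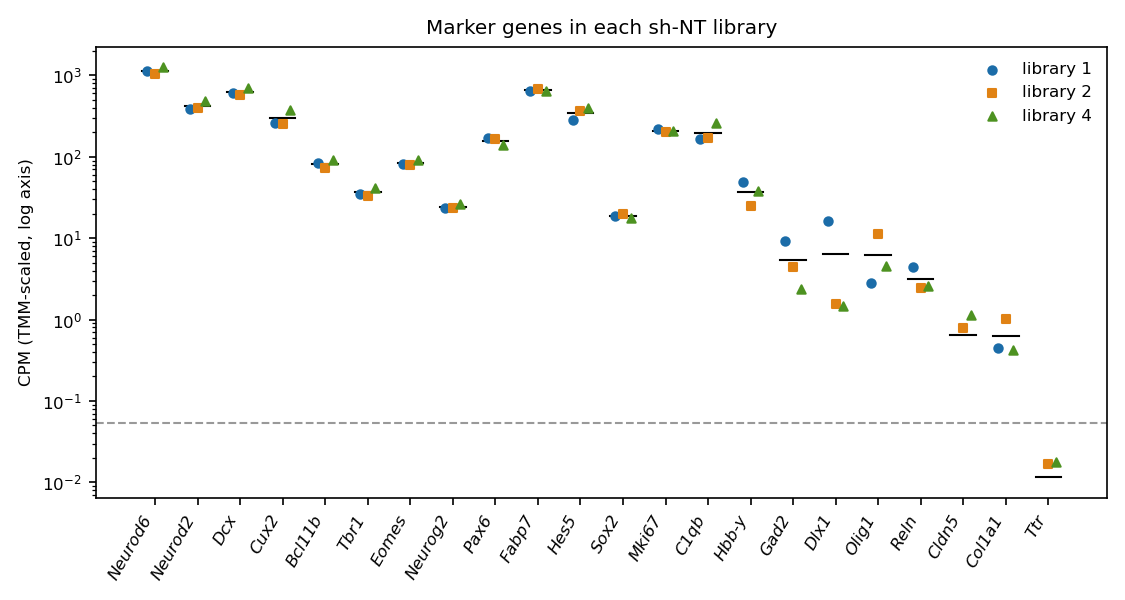
CPM (TMM-scaled, log axis) of marker genes in sh-NT libraries 1 (circles), 2 (squares) and 4 (triangles), with the mean of the 3 as a bar, the highest CPM that 3 reads can give in a library (0.0531) as a dashed line, and libraries at 0 not drawn (Cldn5 and Ttr in library 1). Neurod6, Eomes, Pax6 and Fabp7 differ by 1.21 times or less between libraries, whereas Dlx1 is at 16.2 CPM in library 1 and at 1.54 and 1.47 CPM in libraries 2 and 4.

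Factors of the dorsal telencephalon were present throughout. All 6 genes of a list of telencephalic and pallial regional factors were at 1 CPM or more, with a median of 23.8 CPM per kb. Emx1, a homeobox factor of the pallium, was the least even of them, at 60.3, 70.6 and 98.3 CPM, highest in library 4. Against this, 9 of 10 genes that mark the diencephalon, midbrain or hindbrain were below 1 CPM, and En1, Hoxa2, Hoxb2 and Hoxb3 had no read in any library, which allows up to 3 reads or 0.0483 to 0.0531 CPM per library (a limit that covers counting error only). The exception was Tcf7l2, a Wnt pathway factor that marks the thalamus among other cells, at 79.9, 79.6 and 126 CPM.

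Genes of newborn and migrating excitatory neurons had the highest median of the cell type lists, 49.5 CPM per kb over 19 genes, all at 1 CPM or more. Tubb3, the neuronal beta-tubulin, was the highest per length and among the most even genes, at 1011, 1026 and 1026 CPM. The bHLH factor Neurod2 stood at 387, 393 and 487 CPM, and Dcx, the microtubule-associated protein of migrating neurons, at 605, 569 and 704 CPM. Map1b, another microtubule-associated protein, was the most uneven of the list, at 2180, 1948 and 2995 CPM. Library 4 was the highest of the 3 for 15 of the 19 genes and library 2 the lowest for 12, and the summed CPM of the list was 10520, 10010 and 12480. For comparison, library 4 was the highest for 49.5% of all genes at 10 CPM or more and library 2 the lowest for 39.2%. In these bulk libraries, a larger share of cells of a type and more RNA per cell of it cannot be told apart.

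The vesicular glutamate transporters of the list differed widely in level. Slc17a6 (VGLUT2), which loads glutamate in immature and subcortical neurons, stood at 175, 145 and 194 CPM, or 31.7 ± 4.53 CPM per kb (SD, n = 3). Slc17a7 (VGLUT1), the transporter of mature cortical excitatory neurons, was the lowest gene of the neuronal list, at 1.93, 2.08 and 1.77 CPM, or 0.357 ± 0.0285 CPM per kb.

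The upper-layer list exceeded the deep-layer list in its median in every library. The median of 13 upper-layer genes was 20.2 CPM per kb against 4.45 CPM per kb for 16 deep-layer genes, and the ratio of the medians was 4.76, 5.12 and 4.14 in libraries 1, 2 and 4. Pou3f2 (Brn2), a POU factor of upper-layer neurons that progenitors also express, led at 138 ± 9.59 CPM per kb (SD, n = 3). Cux2, a homeobox factor of upper layers and their progenitors, stood at 262, 253 and 372 CPM. Cux2 and Pou3f3 were each highest in library 4, and library 2 was the lowest for 10 of the 13 upper-layer genes, against 39.2% of all genes at 10 CPM or more. The activin subunit gene Inhba was the lowest of the list, at 3.90 ± 0.330 CPM.

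Deep-layer genes had a lower median but were mostly present, with 14 of 16 at 1 CPM or more. Rprm, a gene of corticothalamic neurons, was the highest per length, at 33.3 ± 2.62 CPM per kb (SD, n = 3), and Wnt7b, a Wnt ligand, stood at 137, 178 and 149 CPM. Bcl11b (Ctip2), the zinc finger factor of subcerebral projection neurons, was at 84.8, 72.3 and 90.9 CPM, and Tbr1, the T-box factor of early-born layer 6 neurons, at 34.8, 33.3 and 41.3 CPM. Fezf2, which specifies subcerebral projection neurons, stood at 13.8, 16.7 and 16.3 CPM. Per length, Pou3f2 lay above Bcl11b at 10.2 ± 1.17, Tbr1 at 6.64 ± 0.783 and Fezf2 at 5.11 ± 0.519 CPM per kb. Single genes of the upper-layer and deep-layer lists overlapped. Upper-layer Mdga1, Rorb, Mef2c and Inhba, at 4.54, 3.83, 3.75 and 0.610 CPM per kb, had lower means than these deep-layer factors. Deep-layer Rprm, Wnt7b and Pcp4, at 33.3, 31.6 and 26.1 CPM per kb, lay above upper-layer Cux1 at 20.2 CPM per kb. Crym and Hs3st4 were below 1 CPM, with 2 to 4 and 1 to 14 reads per library.

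**Figure D2:**
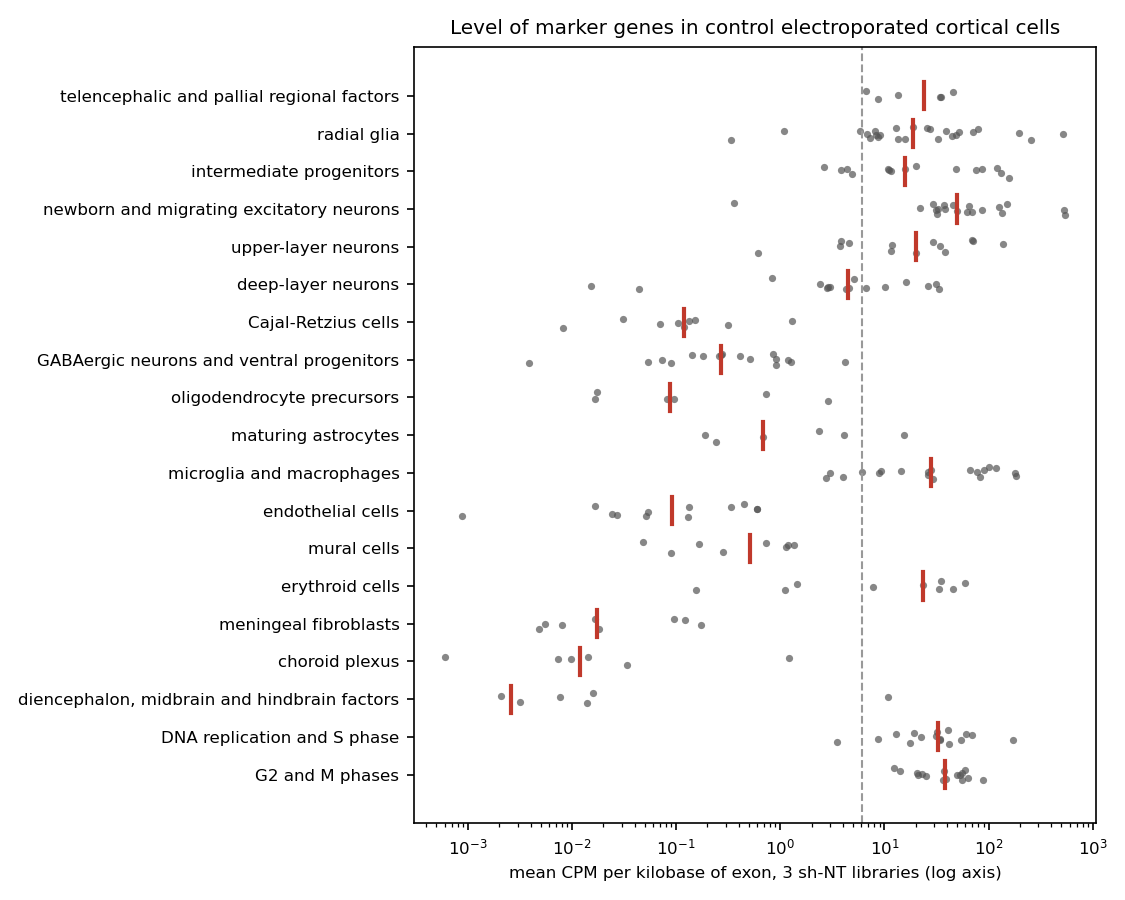
Mean CPM per kb of exon over the 3 sh-NT libraries (log axis) for each gene of the cell type and cell cycle lists, with each list's median as a red bar and the median of all ranked genes, 6.05 CPM per kb, as a dashed line; genes with no read are not drawn. Lists of excitatory neurons, progenitors, cell cycle, microglia and globins have medians above that line, and those of vascular, meningeal, choroid plexus, oligodendrocyte, GABAergic and deep-layer cells lie below it.

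Intermediate progenitor genes were all at 1 CPM or more, 15 of 15, with a median of 15.9 CPM per kb. The somatostatin receptor gene Sstr2 led at 350, 328 and 327 CPM, or 156 ± 5.87 CPM per kb (SD, n = 3). Hes6, a bHLH protein that promotes neuronal differentiation, stood at 133 ± 18.8 CPM per kb, Gadd45g, a growth arrest gene, at 121 ± 5.51 CPM per kb and Btg2, an antiproliferative gene of neurogenic divisions, at 87.1 ± 1.17 CPM per kb. Neurog2, the proneural factor upstream of Eomes, was lower, at 23.2, 23.4 and 26.1 CPM. These genes were even between libraries, and the most uneven member at 10 CPM or more, the Notch ligand gene Dll1, differed 1.34 times between its highest and lowest library.

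Radial glial genes had a median of 18.7 CPM per kb, with 24 of 25 at 1 CPM or more. After Fabp7 the highest were Hes5, a Notch target, at 283, 365 and 395 CPM, Dbi, an acyl-CoA binding protein, at 276, 281 and 282 CPM, and Sox9, a SOX factor of neural stem cells, at 312, 353 and 318 CPM. Exons of another annotated gene cover 31.8% of Hes5, so part of its reads may not be its own. Sox2, a pluripotency and neural stem cell factor, stood at 18.6, 19.6 and 17.6 CPM, or 9.04 ± 0.468 CPM per kb (SD, n = 3), far below Sox9 at 79.2 ± 5.33 CPM per kb. Hopx, a marker of outer radial glia, was below 1 CPM in each library, at 0.596, 0.591 and 0.354 CPM. Library 2 was the highest for 14 of the 24 detected genes and library 4 the lowest for 16, against 25.2% and 32.7% of all genes at 10 CPM or more. The ratio of the neuronal median to the radial glial median was 2.99, 2.56 and 2.69 in libraries 1, 2 and 4.

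Cycling cells were represented in all 3 libraries. All 16 genes of DNA replication and S phase and all 16 of the G2 and M phases were above 10 CPM, with medians of 32.9 and 38.4 CPM per kb. Mki67, the proliferation antigen Ki-67, stood at 219, 201 and 209 CPM, and Top2a, the topoisomerase of dividing cells, at 605, 574 and 542 CPM. Rrm2, the ribonucleotide reductase subunit that is made in S phase, led the replication genes at 173 CPM per kb, with 461, 465 and 512 CPM. For the G2 and M genes library 1 was the highest in 14 of 16, against 25.3% of all genes at 10 CPM or more, although the largest ratio between libraries in that list, for Ube2c, was 1.33. The summed CPM was 3168, 2909 and 2854 for G2 and M genes and 2692, 2758 and 2716 for replication genes.

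Several immediate early genes, which respond to stimulation and also to cell dissociation, were among the abundant messages, but not all of them were. Fos stood at 327, 343 and 317 CPM, or 140 ± 5.64 CPM per kb (SD, n = 3), and Egr1 at 405, 469 and 382 CPM. Jun was less even, at 823, 759 and 501 CPM, lowest in library 4. Fosb and Nr4a1, at 2.83 ± 0.481 and 3.07 ± 0.169 CPM per kb, lay below the median ranked gene at 6.05 CPM per kb. The constitutive chaperone gene Hspa8 stood at 1306 ± 99.4 CPM, whereas the heat-inducible Hspa1a was at 12.3, 9.45 and 13.1 CPM. Hspa1b, whose sequence is nearly that of Hspa1a, was at 0.596, 0.388 and 0.725 CPM, a split that depends on how shared reads were assigned. Xist, the RNA of the inactive X chromosome, stood at 154, 112 and 184 CPM, and the Y-linked gene Ddx3y at 75.8, 77.4 and 60.4 CPM. Xist and the 4 Y-linked genes examined were above 10 CPM in every library. Each library thus held RNA from cells of both sexes, and so of more than 1 embryo.

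Gpc4 and Gpc2, the genes that the other constructs of the series target, were both abundant in the controls. Glypicans are heparan sulphate proteoglycans anchored in the cell membrane that bind growth factors. Gpc4 stood at 165, 188 and 175 CPM, or 66.4 ± 4.49 CPM per kb (SD, n = 3), at the 95.0 percentile. Gpc2 stood at 200 (199.7), 208 and 161 CPM, or 44.3 ± 5.79 CPM per kb, at the 91.3 percentile, and 55.6% of its exonic bases are shared with another annotated gene. Of the other 4 glypicans, Gpc6 and Gpc1 stood at 59.9 ± 11.5 and 47.7 ± 1.16 CPM, Gpc3 at 8.08 ± 0.829 CPM and Gpc5 below 1 CPM, at 0.596, 0.625 and 0.407 CPM. Per length, Gpc4 lay above Gpc2 in each library, and both lay several times above Gpc6 and Gpc1.

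Microglial and macrophage genes were abundant in these libraries of mCherry-sorted cells. All 19 genes of the list were above 1 CPM, and their median, 28.0 CPM per kb, exceeded that of the radial glial list. C1qb, a complement component made by microglia, stood at 165, 172 and 260 CPM, and Ctss, a lysosomal protease of the same cells, at 191, 193 and 350 CPM. Cx3cr1, the fractalkine receptor of microglia, had a mean of 118 CPM, Csf1r, the receptor for colony-stimulating factor 1, stood at 149, 159 and 201 CPM and the homeostatic marker Tmem119 at 27.8, 29.0 and 43.5 CPM. Library 4 was the highest for 18 of the 19 genes, against 49.5% of all genes at 10 CPM or more. Library 1 was the lowest for 16, against 28.0%. The summed CPM of the microglial list was 1439, 1586 and 2288. For the 25 genes of the radial glial list the sum was larger, at 4426, 4715 and 4198 CPM. The order of the 2 medians depends on which genes each list holds and does not show which cell type gave more RNA. The part that this signal plays in the levels of other genes was not tested.

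Globin genes were present at lower levels and were uneven. The embryonic globins Hbb-y and Hba-x stood at 48.5, 25.01 and 38.3 CPM and at 46.9, 24.5 and 57.7 CPM, and the adult Hbb-bs at 19.5, 19.0 and 42.2 CPM. Library 2 was the lowest for each of the 7 erythroid genes at 1 CPM or more. It was the lowest for 39.2% of all genes at 10 CPM or more. The summed CPM of the erythroid list was 159, 105 and 217. Adult alpha-globin is encoded by the near-identical genes Hba-a1 and Hba-a2, so their separate values are uncertain, as are those of the adult beta-globins Hbb-bs and Hbb-bt.

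Other cell types of the forebrain left few reads. Of 12 endothelial genes 3 were at 1 CPM or more, the highest per length being the adhesion molecule gene Pecam1, at 2.70, 3.71 and 4.78 CPM. Cldn5, the tight junction protein of brain endothelium, had no read in library 1 and stood at 0.793 and 1.13 CPM in libraries 2 and 4. Of 8 meningeal fibroblast genes only the collagen gene Col1a2 reached 1 CPM, at 2.12, 2.70 and 1.61 CPM. Ttr, the transport protein that the choroid plexus makes in bulk, had 0, 1 and 1 reads. For mural cells 4 of 8 genes were at 1 CPM or more, led by Notch3 at 10.2, 13.0 and 9.38 CPM.

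Among glial markers, Aldh1l1, a folate enzyme of astrocytes and radial glia, stood at 70.6, 78.6 and 61.6 CPM, whereas Aqp4, the water channel of mature astrocytes, was at 1.63, 1.72 and 1.19 CPM. Gfap, an intermediate filament of astrocytes, stood at 3.70, 16.4 and 9.82 CPM. Olig1, an oligodendrocyte lineage factor, stood at 2.83, 11.2 and 4.53 CPM, and the related Olig2 at 0.966, 2.48 and 2.05 CPM. Gfap, Olig1 and Olig2 were each highest in library 2 and lowest in library 1. Sox10, which defines the oligodendrocyte lineage, had 2 to 4 reads per library. Reln, the secreted protein of Cajal-Retzius cells, stood at 4.46, 2.41 and 2.58 CPM, and their factor Lhx5 had 4 to 7 reads.

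Genes of GABAergic neurons were low in libraries 2 and 4 and higher in library 1. Of 18 genes in that list 10 were at 1 CPM or more, and 9 of these 10 were highest in library 1. Library 1 was the highest for 25.3% of all genes at 10 CPM or more. The cutoff is on the mean, and Dlx2, Dlx5, Dlx6os1, Isl1 and Gad1 passed it through library 1 alone. The count of 9 is thus partly set by the cutoff. Dlx1 and Dlx2, homeobox factors of ventral forebrain progenitors, stood at 16.2, 1.54 and 1.47 CPM and at 6.47, 0.574 and 0.301 CPM. Gad1, one of the enzymes that make GABA, stood at 2.78, 0.338 and 0.124 CPM, and the striatal factors Ebf1 and Isl1 at 8.95, 1.71 and 1.27 CPM and at 2.99, 0.135 and 0.0708 CPM. Dlx6os1, a long noncoding RNA of the Dlx5 and Dlx6 locus, stood at 13.2 CPM in library 1 against 0.489 and 0.478 CPM in the others. For Dlx5 the reads were 203 in library 1 and 3 and 9 in libraries 2 and 4.

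The other members of the GABAergic list did not all follow that order. The markers of the medial ganglionic eminence were scarce in all libraries: Lhx6 stood at 0.451, 0.354 and 0.248 CPM, Nkx2-1 had 1, 1 and 0 reads and Lhx8 had none. The somatostatin gene Sst stood at 0.0805, 0.118 and 0.195 CPM. The median of the list over libraries 2 and 4 alone was 0.287 times its value over the 3 libraries, so its level in these controls rests on library 1. Summed, the list came to 87.5, 33.3 and 23.6 CPM, small beside the 10010 to 12480 CPM of the excitatory neuron list.

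Of 612 transcription factor genes in 15 families, 376 (61.4%) were at 1 CPM or more and 267 at 10 CPM or more. Sox11 led at 659 ± 132 CPM per kb (SD, n = 3), followed by Neurod6 at 529 ± 49.6 and Sox4, a close relative of Sox11, at 270 ± 56.2 CPM per kb, although 54.6% of the Sox4 exonic bases are shared with another gene. The next were Hes5, Jun, Hmgb3, Fos, Pou3f2, Id2, Neurod2, Hes6, Nfib, Egr1, Mycn and Neurod1, from 255 down to 87.5 CPM per kb. Hmgb3 is an HMG-box chromatin protein rather than a classical transcription factor. Neuronal factors, progenitor factors and immediate early genes are each among these 15.

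Families differed in how many of their members were detected. All 4 nuclear factor I genes were present, with a median of 65.2 CPM per kb, and Nfib, which promotes neuronal and glial maturation, stood at 1882, 1664 and 2092 CPM. Of 41 bZIP genes 37 were at 1 CPM or more, and of 19 SOX genes 13. Of 130 paired and other homeobox genes only 37 were at 1 CPM or more, Meis2 being the highest per length. Only 2 of 15 T-box genes were, and these were Eomes and Tbr1. Of 43 forkhead genes 18 were at 1 CPM or more, and of 44 nuclear receptor genes 27, with the oxysterol receptor gene Nr1h2 the highest.

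**Figure D3:**
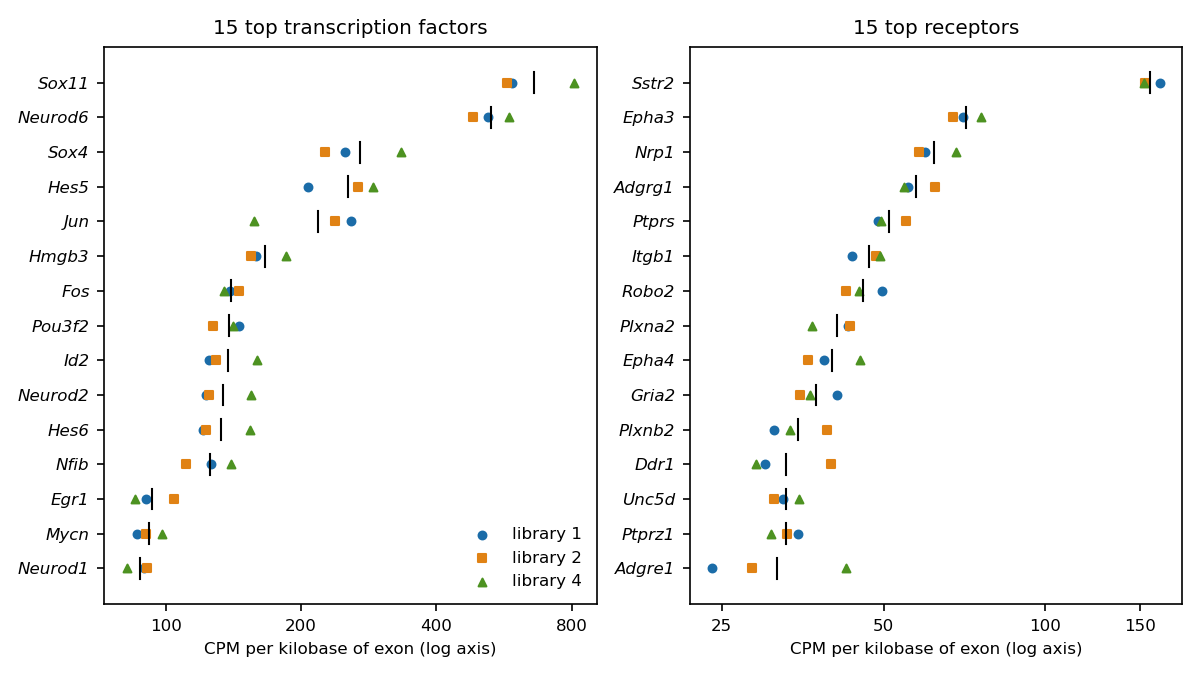
CPM per kb of exon (log axis) of the 15 transcription factor genes and the 15 receptor genes with the highest means, in sh-NT libraries 1 (circles), 2 (squares) and 4 (triangles), with the mean of the 3 as a vertical bar. Sox11 and Neurod6 lead the transcription factors at means of 659 and 529 CPM per kb, and Sstr2 leads the receptors at 156 CPM per kb.

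Of 413 receptor genes in 24 families, 234 (56.7%) were at 1 CPM or more and 141 at 10 CPM or more. Sstr2, already named among intermediate progenitor genes, led at 156 ± 5.87 CPM per kb (SD, n = 3). It was followed by Epha3, an ephrin receptor of growing axons, at 71.2 CPM per kb and by Nrp1, the semaphorin co-receptor neuropilin 1, at 62.0 CPM per kb. Adgrg1 (GPR56), Ptprs, Itgb1, Robo2, Plxna2, Epha4, Gria2, Plxnb2, Ddr1, Unc5d, Ptprz1 and Adgre1 completed the leading 15, the last of them at 31.7 CPM per kb. Guidance receptors for semaphorins, ephrins, slits and netrins made up much of this set, and Adgre1 (F4/80) is a macrophage protein, at 77.7, 92.4 and 138 CPM.

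How many members were detected differed between receptor families. All 11 plexin and neuropilin genes, with a median of 9.22 CPM per kb, all 6 Hedgehog receptor genes and 11 of 12 Wnt receptor genes were at 1 CPM or more. By contrast, 3 of 21 acetylcholine receptor genes, 3 of 7 NMDA receptor genes, 3 of 8 metabotropic glutamate receptor genes and 8 of 42 monoamine, adenosine, opioid and cannabinoid receptor genes were. Other transmitter receptor families were more complete, with 9 of 11 AMPA, kainate and delta glutamate receptor genes and both GABA-B receptor genes at 1 CPM or more. These differences in counts were not tested. Gria2, the AMPA receptor subunit that sets calcium permeability, was the most abundant of the AMPA family, at 636, 543 and 567 CPM. Grin1, the obligatory NMDA receptor subunit, stood at 3.12, 3.17 and 3.20 CPM, and Grin2b, the subunit of immature neurons, at 14.4, 12.9 and 11.4 CPM.

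A few transmitter receptors stood out from scarce families. Chrnb2, a nicotinic acetylcholine receptor subunit, was at 116, 120 (119.5) and 107 CPM, and the cannabinoid receptor gene Cnr1 at 89.7, 77.7 and 124 CPM. Of 24 GABA-A and glycine receptor genes 10 were at 1 CPM or more, the highest per length being Glrb. Reelin can act through Vldlr and Lrp8, which stood at 38.1, 30.9 and 32.2 CPM and at 226, 199 and 218 CPM. Among FGF receptors, Fgfr1 was the highest, at 70.05, 66.95 and 71.6 CPM, Fgfr2 stood at 34.5, 38.2 and 35.5 CPM, and Fgfr3 was uneven, at 23.3, 41.3 and 14.51 CPM. Fgfr3 was highest in library 2 and lowest in library 4, and of the 141 genes of these receptor families at 10 CPM or more it was the only one whose libraries differed at least 2 times.

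Few genes varied widely between the controls. The median gene at 10 CPM or more had a ratio of the highest to the lowest library of 1.14, and the 90th percentile was 1.34. That ratio reached 2 for 45 of 11421 such genes (0.394%) and 1.5 for 416 (3.64%). The biological coefficient of variation that edgeR estimated was 0.116 over the 3 libraries, and 0.128, 0.131 and 0.0802 without library 1, 2 and 4. Against these shares, none of the 23 radial glial genes at 10 CPM or more reached 1.5, nor did any replication, G2 and M or intermediate progenitor gene, and 2 of 18 excitatory neuron genes did, Map1b and Nfia. Of transcription factors at 10 CPM or more, 2 of 267 reached 2, Irf1 among them, and 16 reached 1.5. Of receptors, 1 of 141 reached 2 and 14 reached 1.5.

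**Figure D4:**
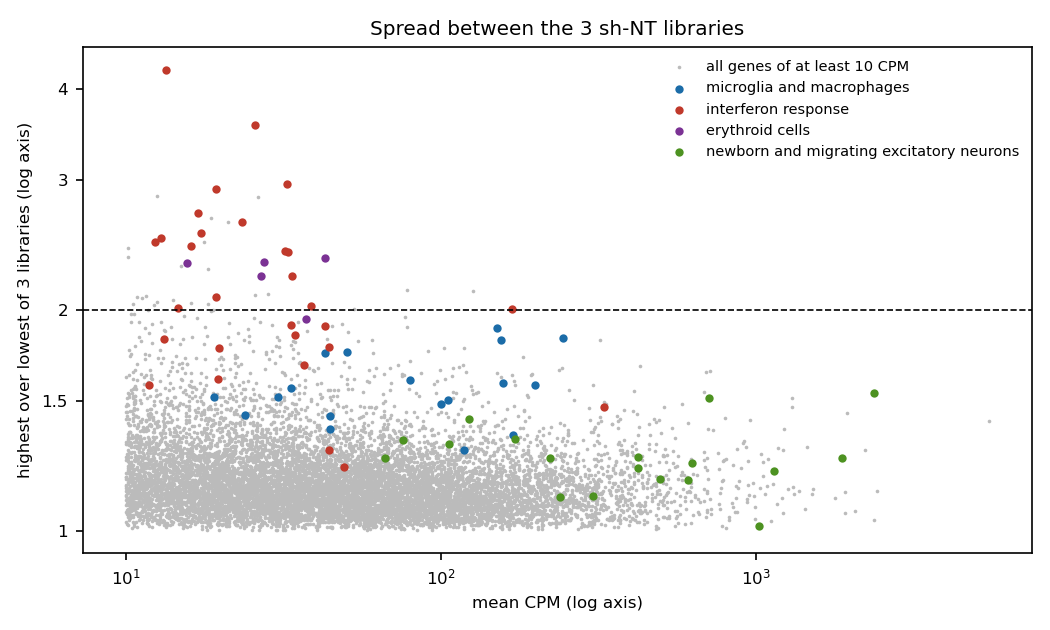
Ratio of the highest to the lowest sh-NT library (log axis) against mean CPM (log axis) for the 11421 genes at 10 CPM or more, with 4 gene lists in colour and a dashed line at a ratio of 2. Interferon-response and globin genes reach ratios above 2, microglial genes lie between 1.29 and 1.89, and excitatory neuron genes lie at 1.54 or below.

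Of the 45 genes, 17 are on a list of 36 interferon-response genes that was drawn up after these values had been seen, 4 are globin genes and 24 are on no list. Library 1 was the lowest of the 3 for 27 of the 45, against 28.0% of all genes at 10 CPM or more. The 17 and the choice of that list are not independent, so their share is a description. Over the 36 genes, all at 1 CPM or more, library 2 was the highest for 30 and library 1 the lowest for 22. The same shares of all genes at 10 CPM or more were 25.2% and 28.0%. The summed CPM of the 36 genes was 913, 1522 and 1288 in libraries 1, 2 and 4. Interferons are secreted antiviral signals. Type I interferons act at interferon-stimulated response elements, and interferon gamma acts at gamma-activated sequences.

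Iigp1, an interferon-inducible GTPase that acts against intracellular parasites, had the widest range among genes at 10 CPM or more, at 4.31, 18.3 and 17.5 CPM, 4.24 times between highest and lowest. Gbp2, a guanylate-binding protein, stood at 11.3, 25.8 and 40.2 CPM, and Igtp, a further GTPase of the IRG family, at 16.4, 48.8 and 32.3 CPM. Library 1 was the lowest for each of these 3. Isg15, a ubiquitin-like protein, was at 13.5, 27.2 and 10.03 CPM and Ifit1, an RNA-binding antiviral protein, at 10.4, 19.0 and 7.70 CPM, so for these it was library 2 that was high and library 4 that was lowest. Irf1, an interferon regulatory factor, stood at 12.9, 26.9 and 18.1 CPM.

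The list thus held more than 1 order of the libraries. Gbp3, Gbp6, Gbp7, Nlrc5, Irgm1, Irgm2 and Ddx60 had library 1 lowest and library 2 highest, as Igtp and Irf1 did. Oasl2, Ddx58, Isg15 and Ifit1 had library 2 highest and library 4 lowest. Below 10 CPM, the guanylate-binding protein genes Gbp4 at 2.29, 2.89 and 11.1 CPM and Gbp8 at 1.43, 1.27 and 5.57 CPM, were high in library 4 alone. B2m, the invariant chain of MHC class I, was the most abundant gene of the list and stood at 270, 319 and 398 CPM.

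**Figure D5:**
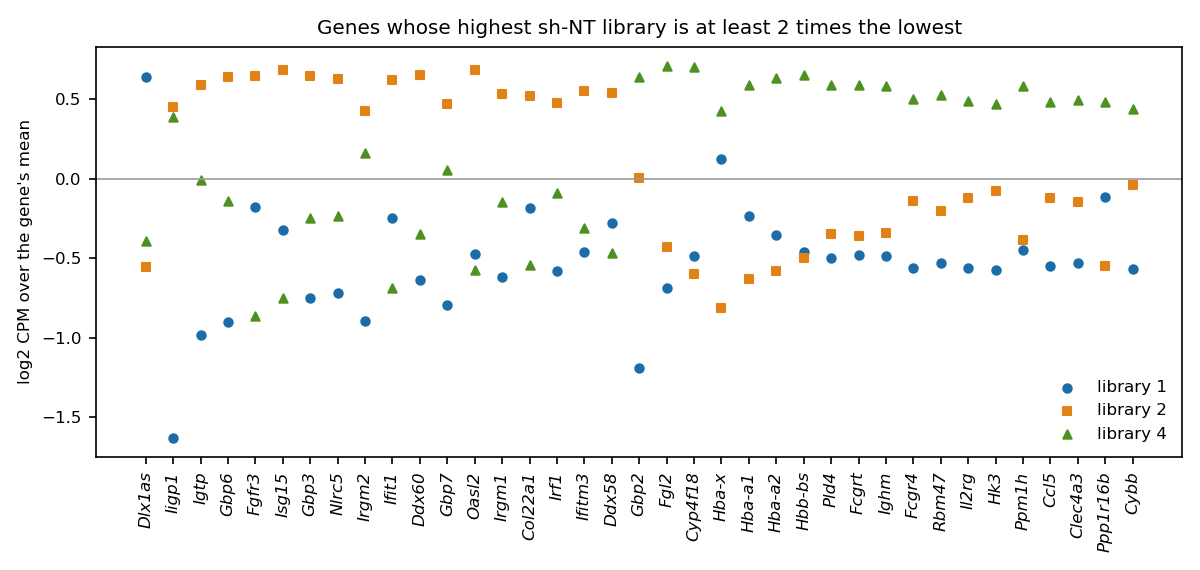
Log2 of CPM in sh-NT libraries 1 (circles), 2 (squares) and 4 (triangles) over the gene's mean CPM, for named genes among the 45 variable ones, grouped by the library that is highest. Interferon-inducible genes such as Iigp1 and Igtp are lowest in library 1, at 4.31 and 16.4 CPM, and most genes at the right, among them Pld4 and Cybb, are highest in library 4.

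Promoter sequences of 5 of these genes are shown because the genes were among the most variable between the controls and differ in which of 2 interferon-related motifs they carry. Each is the last 125 bases before the transcription start, 5′ to 3′ on the strand of the gene, from RefSeq (GRCm38.p6). Capitals mark matches to GAAANNGAA, the core of interferon-stimulated response elements, or to TTCNNNGAA, the gamma-activated sequence. Both motifs were searched on both strands, and matches may overlap each other. Isg15 is at chr4:156200819-156200943 (minus strand), Ifit1 at chr19:34640764-34640888 (plus strand), Gbp2 at chr3:142620538-142620662 (plus strand), Igtp at chr11:58199431-58199555 (plus strand) and Irf1 at chr11:53769889-53770013 (plus strand).
Isg15: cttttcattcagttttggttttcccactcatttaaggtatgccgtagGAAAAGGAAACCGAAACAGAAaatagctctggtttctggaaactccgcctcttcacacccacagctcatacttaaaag
Ifit1: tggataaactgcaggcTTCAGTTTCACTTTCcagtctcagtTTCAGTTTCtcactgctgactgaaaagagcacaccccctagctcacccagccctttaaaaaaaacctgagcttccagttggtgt
Gbp2: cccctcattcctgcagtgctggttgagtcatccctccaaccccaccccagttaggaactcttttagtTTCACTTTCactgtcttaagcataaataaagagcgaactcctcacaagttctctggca
Igtp: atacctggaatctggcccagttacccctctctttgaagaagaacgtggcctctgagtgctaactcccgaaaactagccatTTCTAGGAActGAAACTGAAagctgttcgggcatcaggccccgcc
Irf1: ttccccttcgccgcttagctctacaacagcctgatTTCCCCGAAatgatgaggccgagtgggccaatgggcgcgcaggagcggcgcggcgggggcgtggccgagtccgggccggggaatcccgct

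Isg15 and Ifit1 carry 3 matches each to the response element motif. Gbp2 carries 1 such match, Igtp carries 1 of each motif, and the Irf1 promoter shown carries only the gamma-activated sequence, while a second RefSeq start of Irf1 has neither. The number of matches did not follow the order of the libraries. Oasl2 and Ddx58, which were highest in library 2 and lowest in library 4 as Isg15 and Ifit1 were, have no match. Gbp3, Irgm1 and Ddx60, which were lowest in library 1, have 2 response element matches each, although a second RefSeq start of Gbp3 has neither motif. Of the 17 variable interferon genes 13 matched a promoter entry by symbol, with 15 promoters. In the 250 bases before the start, the response element motif was in 9 of those 15 promoters and the gamma-activated sequence in 4 (26.7%), against 7.13% and 7.02% of all 32851 promoters of the same length. Over the whole interferon list the motifs were in 17 and 8 of 32 promoters, shares close to those of its variable members. Genes of the list were chosen as interferon-response genes, so a share above that of all promoters says nothing about variation between the libraries. For Gbp7 and Irgm2, bases just after the RefSeq start were not found in a GENCODE M21 transcript of the gene, so their starts are uncertain. The microglial list had the motifs in 13.3% and 0.0% of 15 promoters, and the excitatory neuron list in 0.0% and 6.67% of 15. A match is a run of letters and does not show that a factor bound there, and these shares were not tested.

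Outside the interferon list, variable genes followed other orders. Pld4, a lysosomal nuclease of microglia, stood at 55.2, 61.2 and 117 CPM, Cybb, a subunit of the phagocyte NADPH oxidase, at 35.8, 51.6 and 71.7 CPM and Fcgrt, the neonatal Fc receptor, at 20.3, 22.1 and 42.7 CPM. All 3 were highest in library 4, where microglial genes were highest too. No microglial list gene reached 2, but 12 of the 18 at 10 CPM or more reached 1.5, against 3.64% of all genes, with a median ratio of 1.54 against 1.14. Col22a1, a collagen gene, stood at 22.5, 36.8 and 17.6 CPM, highest in library 2 as Fgfr3 was. Dlx1as, which is antisense to Dlx1, stood at 23.3, 10.2 and 11.4 CPM, highest in library 1 as Dlx1 was. Exons of other genes cover 20.55% of Dlx1as and 6.21% of Dlx1, and reads from shared bases cannot be told apart without strand.

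Library 4 also stood slightly apart in how levels vary with gene length. For genes at 10 CPM or more, the median log2 ratio of library 4 to the mean of the other 2 was 0.10 in the 2700 genes with the shortest exons and -0.02 in the 2696 with the longest. For library 1 the same medians were -0.05 and 0.02, and for library 2 they were -0.07 and -0.02. Fold differences between libraries of this size are small beside the 2-fold ratios above, and the part of this trend in single genes was not tested.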

How the data were processed

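RNA was purified with a PicoPure kit and libraries were made with the NEBNext Single Cell/Low Input kit, per the labels' protocols. The authors deposited 1 table of unnormalized read counts, with a row per gene and 9 libraries as columns. The submitters' processing notes name featureCounts, Subread and the builds GRCm38 and mm10; for the aligner, versions, annotation release and strand setting, the sources used here give nothing. Reads of overlapping or antisense genes therefore cannot be told apart, and PCR duplicates are counted. All 37 mitochondrial genes had 0 reads. The titles number the replicates 1 to 3 and the columns 1, 2 and 4, so columns were tied to the sh-NT group and not to a titled replicate; 0 columns of no known group were used.

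Counts were scaled with TMM factors from all 9 libraries (edgeR 4.0.16, R 4.3.3; factors 1.003, 1.006 and 0.951 for the sh-NT libraries), and tables were made with Python 3.11.15 and pandas 2.3.3. Levels per kb used the union of exons in GENCODE M21; 51486 of 78275 identifiers (65.8%) had a symbol there, and the rest held 3.04%, 3.12% and 3.03% of the reads. Variation is the ratio of the highest to the lowest library at a mean of at least 10 CPM, and the 3 libraries of 1 group allow no test of 1 against the others. Genes named are the 4 markers, of each list the up to 4 highest per kb, the lowest and the up to 4 most variable, scarce defining markers, the top 15 protein-coding, factor and receptor genes, family extremes, the 12 most variable genes and 5 sex-linked genes; further genes were chosen after their values were seen, as were the interferon and glypican lists. Members and lists were chosen with earlier results of these data known. The dispersion estimate and the 2-fold ratio rule were tested on simulated data, and the scaling factors were not. Alternatives were other scalings (DESeq2 1.42.0 size factors among them), other thresholds and lengths, and leaving out each library. Some genes of the lists and families are not reported here by name, though they enter the counts and medians.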

Additional observations from a re-analysis of the deposited data

How the results depend on the processing

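Levels of Neurod6, Eomes, Pax6 and Fabp7 moved by less than their spread with sh-NT-only TMM factors, DESeq2 size factors or total counts. Leaving out 1 of 3 libraries cannot move a mean by as much as their SD, so it is no check on that scale. Without library 1, 2 or 4, Neurod6 was at 1144, 1187 and 1081 CPM and Pax6 at 153.2, 153.5 and 167.7 CPM. Eomes was then at 85.41, 85.95 and 80.71 CPM and Fabp7 at 656.7, 641.3 and 660.3 CPM. The percentiles moved with the length: without division by length and with the longest transcript they were 99.83 and 99.79 for Neurod6 (99.86 as reported), 79.82 and 76.08 for Eomes (78.80), 91.22 and 83.93 for Pax6 (69.76) and 99.38 and 99.90 for Fabp7 (99.85). The number of genes with a ratio of 2 or more, 45, was 81 at a mean of at least 5 CPM, 4 at 50 CPM and 416 at a ratio of 1.5. Without library 1, 2 or 4 it was 17 to 24, which follows in part from comparing 2 libraries. The other scalings gave 39 to 47, of which 33 to 45 were among the 45. Under the scalings the 23 list medians moved by less than their spread, and 10 moved when members below 1 CPM were left out. Without library 1 the medians were 0.287 to 1.353 times those reported, the lowest being that of the GABAergic list. Without library 2 they were 0.7815 to 1.406 times, and without library 4 0.7258 to 1.4 times. None of these moves passed the spread, but that spread itself includes the library left out. No paired analysis was possible because only 1 group is described, no test is made and column numbers do not match the titled replicates. With 3 libraries, spread is poorly known, and counts below about 3 reads per library do not separate low expression from none.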
